A study of Mus musculus with 383 samples.

Results

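Nuclei of vagal motor neurons were compared by whether reads of the Hox genes Hoxa5 and Hoxb5 were found in them. The first class, called Hoxa5/Hoxb5-negative or negative here, had no read of either gene and held 43 nuclei. The second, called double-positive, had at least 1 read of Hoxa5 and at least 5 reads of Hoxb5 and held 104 nuclei. Both were taken from 244 nuclei, of 383 in all, that had at least 500000 reads, at least 1000 genes with a read, a read of Chat or Slc5a7, a read of Tbx20 and no read of Cck. Of the 383 nuclei, 295 met the limits on reads and genes, 294 of these also had Chat or Slc5a7, 265 also had Tbx20, and 244 were left once those with Cck were put aside. The remaining 97 nuclei belonged to neither class.

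The nuclei came from the hindbrain motor nucleus of the vagus nerve in male Chat-IRES-Cre mice, which make Cre recombinase from the choline acetyltransferase locus, on a C57BL/6 background. At 10 weeks of age the mice received 100 nL of AAV9-DIO-H2b-mCherry, a virus that marks the nuclei of Cre-expressing cells with a red protein, and tissue was taken 16 days later, while the design text gives an age of 12 weeks. Tissue was pooled, nuclei positive for mCherry and a DNA dye were sorted singly into wells, and cDNA was made by Smart-seq2 with 22 amplification cycles and no molecular identifiers. No animal is named for any nucleus, so negative and double-positive nuclei share genotype, virus, sex and preparation and form 1 sample. For that reason no test, p-value or standard error is given. Shares of nuclei carry exact Clopper-Pearson 95% intervals, which cover counting error only and say nothing of the spread between animals.

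Hox genes encode homeodomain transcription factors that lie in clusters and are switched on in an order along the head-to-tail axis of the embryo, those of low paralog number reaching furthest forward. In the hindbrain and spinal cord they give motor neurons their position-dependent identity, and paralog group 5 genes are known for marking the caudal hindbrain and the cervical cord. The vagal dorsal motor nucleus sends preganglionic cholinergic axons to the stomach, gut, pancreas and other organs, and its neurons carry receptors for gut and pancreatic peptides.

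How the authors counted reads that fit more than 1 gene is not given in the sources used here. Hoxa5 (chromosome 6, 52201754 to 52204587) also lies within the annotated span of Hoxa3 on the same strand and overlaps the antisense gene Hoxaas3, and Hoxb5 (chromosome 11, 96303336 to 96306121) overlaps the antisense gene Hoxb5os, so some reads of these genes may not be separable.

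The nuclei were chosen by their reads of Hoxa5 and Hoxb5, and of Chat, Slc5a7, Tbx20 and Cck, so the values of these genes are a description and support nothing. In double-positive nuclei Hoxa5 had from 1 to 596 reads with a median of 57.5, or 1.11, 39.2 and 370.2 RPM (reads of the gene scaled to a library total of 1e+06) as the lowest, median and highest value. Hoxb5 had from 6 to 355 reads with a median of 63 there. Few nuclei lay near the limits. The lowest Hoxb5 counts of the double-positive class were 6 and 9 reads, 2 of its nuclei had a single Hoxa5 read, and the highest Hoxb5 count below the limit was 4. Among the 97 nuclei of neither class, 76 had at least 5 Hoxb5 reads and no Hoxa5 (called Hoxb5 only here), 16 had Hoxa5 with under 5 Hoxb5 reads, and 5 had under 5 Hoxb5 reads and no Hoxa5. Hoxb5 was therefore found at 5 or more reads in 180 of the 244 nuclei and Hoxa5 in 120.

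**Figure D1:**
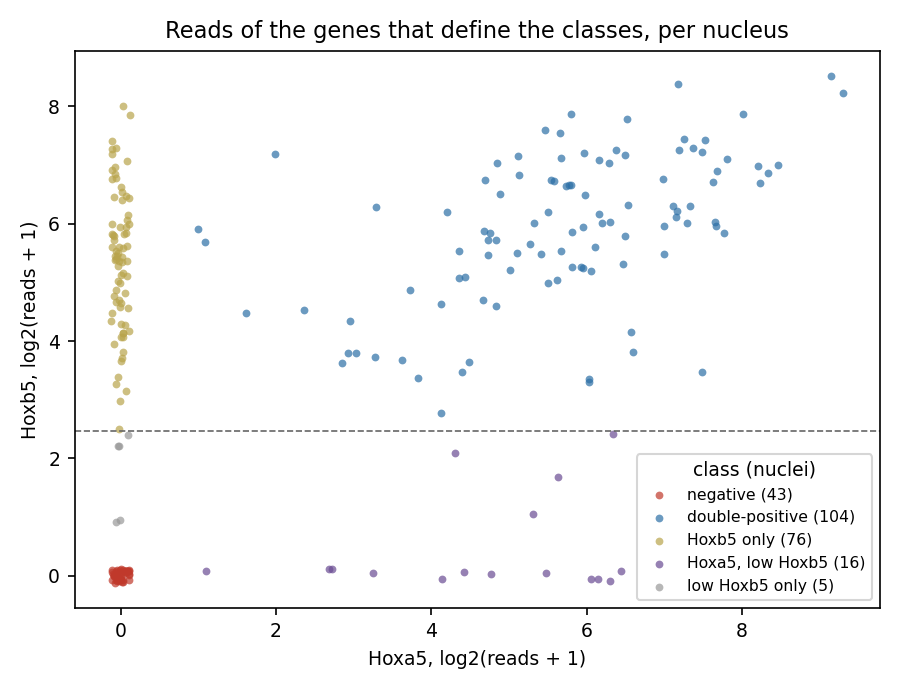
Hoxb5 reads against Hoxa5 reads in each of the 244 kept nuclei, both as log2(reads + 1), with a small random shift so that points at the same value can be seen. Points stand for nuclei, colours for the classes by the rule, and the dashed line separates 4 from 5 Hoxb5 reads. The 43 negative nuclei sit at 0 for both genes, the 104 double-positive nuclei at the upper right and 76 nuclei with Hoxb5 only along the left axis.

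The classes were alike in depth and differed in the few mitochondrial reads that nuclei carry. Negative nuclei had from 725478 to 4699420 reads (median 1509766) and double-positive nuclei from 532391 to 4132838 (median 1424699). After each nucleus was thinned at random to 500000 reads, negative nuclei had 7116 to 13212 genes with a median of 10393, and double-positive nuclei 6583 to 15504 with a median of 10529.5. Mitochondrial genes took a median of 0.0415% of reads in negative nuclei (0.00281 to 0.446) and 0.129% in double-positive nuclei (0.000148 to 0.534), and ribosomal protein genes a median of 0.128% and 0.187%. In blocks of 96 consecutive nucleus numbers, which the labels do not call plates, there were 10, 12, 10 and 11 negative nuclei and 29, 30, 22 and 23 double-positive nuclei. Across all 383 nuclei reads ran from 159 to 4699420.

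Cholinergic and visceral motor genes were present in both classes, which the rule fixed in advance for Chat or Slc5a7 and for Tbx20. Chat, the acetylcholine-synthesising enzyme, was found in 93.0% of negative nuclei (95% interval 80.9 to 98.5) and 100% of double-positive nuclei (96.5 to 100), at mean levels of 203 and 199.9 RPM. Slc5a7, the choline transporter, was found in 93.0% and 97.1%. Tbx20, a T-box factor of visceral motor neurons that the rule requires, had 0.535, 93.2 and 1064 RPM as the lowest, median and highest value in negative nuclei, against 4.16, 321 and 933 RPM in double-positive nuclei. The ranges overlapped widely although the medians were far apart. Phox2a, a homeodomain factor of visceral motor neurons, was found in 9.30% of negative and 31.7% of double-positive nuclei, and Isl1, a LIM factor of motor neurons, in 14.0% and 41.3%. Nr4a2, a nuclear receptor gene, was found in 69.8% of negative and 95.2% of double-positive nuclei. These 3 differences were under the limit of 30 percentage points used below. Of 37 visceral motor transcription factor genes described, 20 had a smaller and 13 a larger share in negative nuclei, with a median difference of -2.24 points.

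Of 6 somatic motor markers, 5 were found in a larger share of negative nuclei. Their summed level ran from 0 to 430 RPM (median 0.396) in negative and from 0 to 133 RPM (median 0) in double-positive nuclei, and 2 of the 6 had no read in any double-positive nucleus. At least 3 somatic markers were found in 2 of 43 negative nuclei and 0 of 104 double-positive nuclei. Without those 2 nuclei the counts of genes below were again 15 and 88, of which 13 and 80 were the same genes.

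Across all genes, a small number passed the limit used here, and most of these were found in fewer negative nuclei. A gene was past the limit where its share of nuclei with a read, at 500000 reads each, differed by at least 30 percentage points and its mean RPM by at least 1.5 times in the same direction. Of 19572 genes with a read in at least 10 of the 147 nuclei, and leaving out Hoxa5 and Hoxb5, 15 were higher in negative nuclei (0.0766%) and 88 were lower (0.45%), together 103 (0.526%). The median share difference over all 19572 genes was -1.36 points. Which genes pass depends on the random draw of the thinning. A second draw gave 17 and 103, of which 10 and 75 were among the 15 and 88. Leaving out each block of nucleus numbers in turn gave 32, 23, 23 and 35 higher and 138, 119, 171 and 110 lower genes. These included 13, 11, 11 and 13 of the 15, and 72, 60, 74 and 67 of the 88. Every one of the 15 and 88 kept its direction each time. Each run kept most of the nuclei over which the genes were chosen, so a change of direction was unlikely from the start. Requiring 5 reads for detection gave 23 and 115. Of the 34 named genes past the limit, 11 differed by at least 30 points in every alternative run, and these were Npy2r, Npy4r, Sstr5, Chrna6, Cbln1, Htra1, Rgs4, Susd5, Tmem114, Ush1c and Ntng2.

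Several groups held no gene past the limit in either direction. These were 17 interferon response genes with a median difference of -4.27 points, 15 immediate early genes (-6.06), 12 axon injury genes (-1.36), 26 neurotrophic factor receptor genes (-0.604), 20 nitric oxide and calcium-binding genes (-3.16), 6 cholinergic genes (-5.53) and 2 somatic motor markers (8.23). The cholinergic genes include Chat and Slc5a7, by which nuclei were chosen, so their result was partly fixed by the rule. Of 27 cadherins and protocadherins, 0 were higher and 1 was lower, Cdh11, with a median of -2.33 points. Over all genes described 0.526% passed the limit, so most lists of this size would hold no such gene. The absence is therefore no result about these groups, and the same share stands beside the list counts by this limit below.

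**Figure D2:**
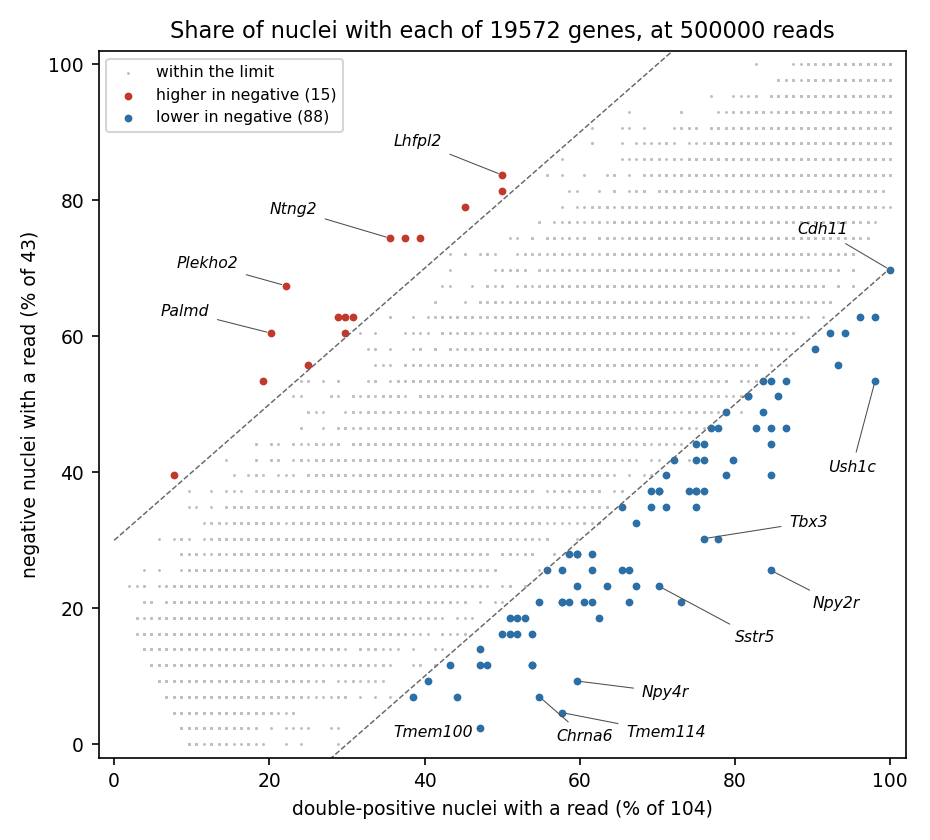
Share of negative nuclei (vertical axis, percent of 43) against share of double-positive nuclei (horizontal axis, percent of 104) with at least 1 read of each of 19572 genes, after thinning to 500000 reads. Each point is a gene, and the dashed lines lie 30 percentage points above and below equality. The 15 genes past the limit above the diagonal are higher in negative nuclei and the 88 below it are lower.

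The genes lower in negative nuclei included several receptors for gut and pancreatic peptides and other transmitters. Npy2r (chromosome 3, 82538383 to 82548084), the Y2 receptor for neuropeptide Y and peptide YY, showed the largest difference of all genes outside the rule. It was found in 11 of 43 negative nuclei (25.6%, 13.5 to 41.2) and 88 of 104 double-positive nuclei (84.6%, 76.2 to 90.9). In negative nuclei its level had a lowest value and a median of 0 and a highest of 178.8 RPM, against a lowest of 0, a median of 142 and a highest of 684.5 RPM in double-positive nuclei. Some double-positive nuclei without a read thus overlapped with the negative class, but the mean level, 15.0 RPM in negative and 174 RPM in double-positive nuclei, differed 11.6-fold.

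Npy4r (chromosome 14, 34143992 to 34152489) encodes the Y4 receptor, whose main ligand is pancreatic polypeptide. It was found in 4 of 43 negative nuclei (9.30%, 2.59 to 22.1) and 62 of 104 double-positive nuclei (59.6%, 49.5 to 69.1). Its highest level was 44.9 RPM in negative and 478.9 RPM in double-positive nuclei, and the means were 2.49 and 81.3 RPM. Double-positive nuclei were themselves divided, since their median level was 9.52 RPM. Sstr5, a somatostatin receptor, was found in 23.3% (11.8 to 38.6) of negative and 70.2% (60.4 to 78.8) of double-positive nuclei, with means of 4.58 and 47.4 RPM. Chrna6, the alpha6 subunit of nicotinic acetylcholine receptors, was found in 6.98% (1.46 to 19.1) and 54.8% (44.7 to 64.6), with means of 2.16 and 48.4 RPM. P2ry1, a receptor for ADP, was found in 34.9% and 71.2%. In no negative nucleus were Npy2r, Npy4r, Sstr5 and Chrna6 all found, and all 4 were absent in 23 of the 43 (53.5%). In double-positive nuclei all 4 were present in 27 of 104 (26.0%) and all were absent in 7 (6.73%). These 4 genes were picked for their difference over the same nuclei, so their joint absence is no further support for it.

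Within the receptor lists most genes did not pass the limit. Of 59 peptide and hormone receptor genes described, 0 were higher and 2 lower, Npy2r and Npy4r, with a median difference of -1.90 points. The list does not hold every such receptor. Sstr5, described above, and the receptor genes Npffr1 and Prokr1 were also lower past the limit and stand outside it. Ntsr1, a neurotensin receptor, came close below the limit, at 25.6% of negative and 54.8% of double-positive nuclei, and Cnr1, the cannabinoid receptor 1 gene, was found in 58.1% and 85.6%. Of 41 receptors for monoamines, acetylcholine and purines, 0 were higher and 2 lower, Chrna6 and P2ry1, with a median of -1.68 points. The ganglionic nicotinic subunits showed smaller differences, Chrna3 being found in 72.1% of negative and 85.6% of double-positive nuclei and Chrnb4 in 60.5% and 55.8%. Htr2c, a serotonin receptor, lay on the other side just within the limit. It was found in 86.0% (72.1 to 94.7) of negative and 57.7% (47.6 to 67.3) of double-positive nuclei, at means of 227 and 44.9 RPM. Cckar, the cholecystokinin A receptor, was found in 23.3% and 30.8%.

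Secreted signals and synaptic organisers formed a second group among the lower genes. Cartpt, which encodes the CART peptide precursor, was found in 8 of 43 negative nuclei (18.6%, 8.39 to 33.4) and 55 of 104 double-positive nuclei (52.9%, 42.8 to 62.8). Its highest level was 52.4 RPM in negative and 725.8 RPM in double-positive nuclei, with means of 4.13 and 54.4 RPM. The Cartpt difference fell just under the limit in some runs. It was -29.7 points at a detection limit of 5 reads, -27.8 without nuclei 1 to 96 and -29.98 without nuclei 289 to 384. Cbln1 and Cbln2, secreted cerebellins that bridge neurexins and postsynaptic receptors, were found in 18.6% and 46.5% of negative nuclei, against 62.5% and 82.7% of double-positive nuclei. Of 38 genes in the list of neuropeptides and secreted signals, 1 was higher and 3 lower, with a median difference of -3.63 points. The higher one was Nxph4, a neurexophilin gene, so genes whose products act around neurexins stood on both sides. Gal, the galanin gene, was found in 81.4% and 98.1%, within the limit.

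Among intracellular and channel genes, Kcnj11 was the 1 of 111 ion channel genes past the limit, beside 0.526% of all genes described. It encodes the pore of ATP-sensitive potassium channels and was found in 16.3% (6.81 to 30.7) of negative and 51.9% (41.9 to 61.8) of double-positive nuclei, at means of 2.02 and 16.0 RPM. Rgs4, which speeds the shut-off of G proteins, was found in 11.6% and 53.8%, and Cdk5r2, an activator of the kinase Cdk5, in 20.9% and 66.3%, a difference of -45.4 points that was -16.5 at a detection limit of 5 reads. For Kcnj11 the difference was under the limit without nuclei 97 to 192, at -25.2 points. Nos1, the neuronal nitric oxide synthase gene, was within the limit, at 81.4% of negative and 92.3% of double-positive nuclei. None of 44 GABA, glycine and glutamate receptor genes passed the limit.

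Several lower genes encode proteins of the membrane or the extracellular space. Htra1, a secreted serine protease, was found in 20.9% (10.0 to 36.0) of negative and 73.1% (63.5 to 81.3) of double-positive nuclei, and Mmp17, a membrane-anchored metalloproteinase, in 30.2% and 77.9%. Htra1 overlaps Fgfr2 on the other strand, and its reads may not be fully separable. Tmem114 was found in 2 of 43 negative nuclei (4.65%, 0.568 to 15.8) and 60 of 104 double-positive nuclei (57.7%, 47.6 to 67.3), and Tmem100 in 1 (2.33%, 0.0589 to 12.3) and 49 (47.1%, 37.2 to 57.2). These were the lowest shares in negative nuclei among the named genes past the limit. Ush1c, which encodes the scaffold protein harmonin, was found in 53.5% of negative nuclei and in nearly all double-positive ones (98.1%), with medians of 1.84 and 111.9 RPM. Tm4sf4 was found in 39.5% and 84.6%, Susd5 in 23.3% and 67.3%, and the cadherin gene Cdh11 in 69.8% and 100%, which without thinning was a difference of -16.3 points and without nuclei 97 to 192 one of -22.6.

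Among Hox genes outside the rule, Hoxc5, Hoxd4 and Hoxd3 passed the limit, all lower in negative nuclei. Of 11 Hox genes described, which leaves out those with a read in under 10 nuclei, 0 were higher and 3 lower, and the share was smaller in negative nuclei for all 11, with a median of -22.8 points beside -1.36 over all genes. As double-positive nuclei outnumber negative ones, a rare gene passes this filter more readily when found in double-positive nuclei. Those left out went both ways, Hoxa7 being found in a larger and Hoxa6 in a smaller share of negative nuclei. Hoxa3, among the 11, spans Hoxa5 of the rule on the same strand. That all 11 went the same way is thus a description only. Hoxc5, the group 5 gene that took no part in the rule, was found in 7 of 43 negative nuclei (16.3%, 6.81 to 30.7) and 56 of 104 double-positive nuclei (53.8%, 43.8 to 63.7), at means of 5.30 and 18.6 RPM. Hoxd4 was found in 16.3% and 51.0%, and Hoxd3 in 34.9% and 65.4%. Hoxd3 and Hoxd4 overlap on the same strand, and Hoxc5 overlaps Hoxc6 and further Hoxc genes, so reads of these genes may not be separable. At a detection limit of 5 reads the differences were -29.7 points for Hoxc5, -19.1 for Hoxd3 and -11.7 for Hoxd4, under the limit. Without nuclei 193 to 288 they were -23.4 for Hoxd3 and -23.9 for Hoxd4, again under it.

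The anterior Hox genes were not missing from negative nuclei. Hoxc4 was found in 76.7% (61.4 to 88.2) of negative and 96.2% (90.4 to 98.9) of double-positive nuclei, at means of 26.3 and 78.3 RPM. Hoxb3 was found in 41.9% and 66.3%, Hoxb4 in 39.5% and 59.6%, Hoxa3 in 16.3% and 30.8%, and Hoxa4 in 6.98% and 29.8%. Genes of groups 6 to 8 were rare in both classes. Hoxb6 was found in 4.65% of negative and 13.5% of double-positive nuclei, Hoxb7 in 2.33% and 7.69%, and Hoxa7 in 4.65% and 2.88%. Hoxa6 was found in 0 of 43 negative nuclei (0 to 8.22) and 4.81% of double-positive nuclei. Hoxc6, Hoxb8, Hoxc8 and Hoxd8 were each found in at most 2.33% of negative and 1.92% of double-positive nuclei. Of 25 genes for Hox cofactors and upstream regulators, 0 were higher and 0 lower, with a median of -1.54 points, and Meis1, whose product binds DNA together with Hox proteins, was found in 100% of both classes.

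**Figure D3:**
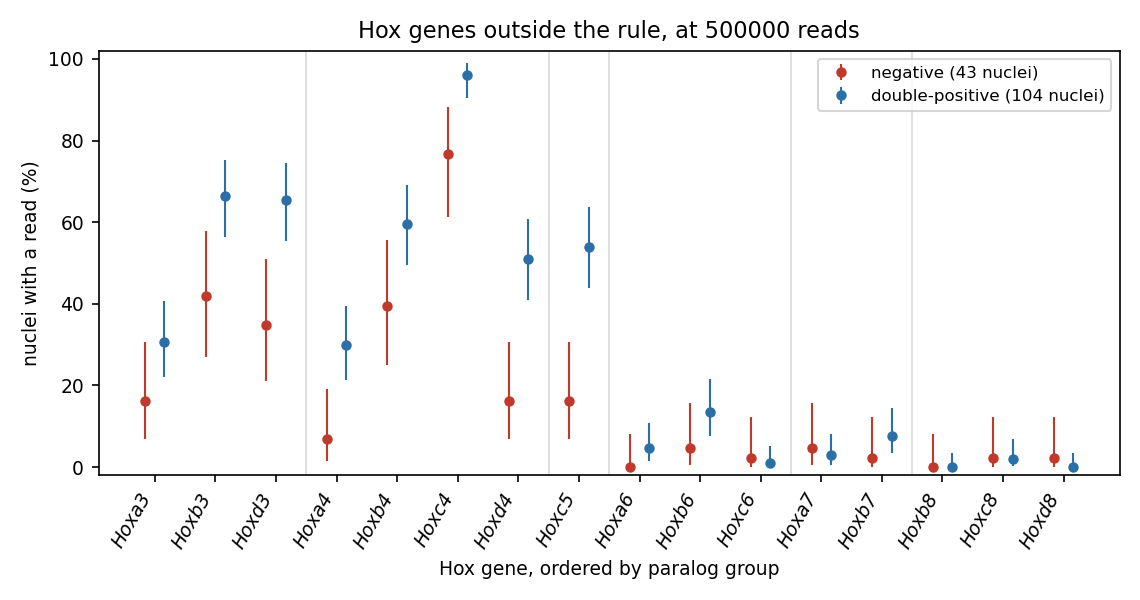
Share of nuclei with at least 1 read of each Hox gene of paralog groups 3 to 8 outside the rule, in negative nuclei (left point of each pair) and double-positive nuclei (right point), after thinning to 500000 reads. Bars are exact 95% intervals over 43 and 104 nuclei, for counting error only. For Hoxc5 the shares are 16.3% and 53.8%, and for Hoxc4 76.7% and 96.2%.

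Tbx3, a T-box transcription factor of visceral motor neurons on chromosome 5 (119670669 to 119684724), was the 1 of 37 visceral motor transcription factor genes past the limit. It was found in 13 of 43 negative nuclei (30.2%, 17.2 to 46.1) and 79 of 104 double-positive nuclei (76.0%, 66.6 to 83.8). Its level had a median of 0 and a highest value of 135 RPM in negative nuclei, against a median of 20.2 and a highest of 216 RPM in double-positive nuclei. The ranges overlapped over most of their length. Tbx3 overlaps the antisense gene Tbx3os1, and whether the counts used strand is not given in the sources used here. The difference was smaller among nuclei with more mitochondrial reads, at 58.3% of 12 negative and 83.6% of 61 double-positive nuclei above the median mitochondrial share, and 19.4% of 31 and 65.1% of 43 at or below it.

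The 15 genes higher in negative nuclei were led by Plekho2, Palmd and Ntng2. Plekho2 (chromosome 9, 65552698 to 65580040), a gene for a pleckstrin-homology protein, was found in 29 of 43 negative nuclei (67.4%, 51.5 to 80.9) and 23 of 104 double-positive nuclei (22.1%, 14.6 to 31.3). Its level was low in both, with a median of 2.94 and a highest value of 112.1 RPM in negative nuclei, against a median of 0 and a highest of 65.6 RPM in double-positive nuclei. At a detection limit of 5 reads its difference was 21.0 points, and at 200000 reads 25.9 points. Palmd, which encodes palmdelphin, was found in 60.5% (44.4 to 75.0) and 20.2% (13.0 to 29.2), and its mean level of 25.2 RPM in negative and 1.52 RPM in double-positive nuclei gave the widest ratio among the named higher genes, 16.6-fold. Palmd and Ntng2 overlap other annotated genes, 4930455H04Rik on the other strand and 6530402F18Rik on the same strand.

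Lhfpl2 (chromosome 13, 94057796 to 94195409), a tetraspan membrane protein gene, was the most abundant of them. It was found in 83.7% (69.3 to 93.2) of negative and 50.0% (40.0 to 60.0) of double-positive nuclei. Its median was 145 RPM and its highest value 1032 RPM in negative nuclei, against a median of 1.26 and a highest of 439.7 RPM in double-positive nuclei, and the means of 273 and 29.6 RPM differed 9.23-fold. Most negative nuclei thus lay above the middle of the double-positive class, although the ranges overlapped.

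Of 69 axon guidance genes described, 2 were higher in negative nuclei, Ntng2 and Sema5b, and 0 were lower, with a median difference of 0 points. Ntng2 encodes netrin-G2, a membrane-anchored adhesion protein, and was found in 74.4% (58.8 to 86.5) of negative and 35.6% (26.4 to 45.6) of double-positive nuclei. Sema5b, a transmembrane semaphorin, was found in 81.4% and 50.0%. Sema3c, a secreted semaphorin, was within the limit at 90.7% and 66.3%, and Epha7, an ephrin receptor, at 81.4% and 58.7%. Nxph4 was found in 74.4% and 37.5%, the amino acid transporter family gene Slc38a11 in 74.4% and 39.4%, and Tmem26 in 79.1% and 45.2%. Masp1, a serine protease of the lectin complement pathway, was found in 55.8% and 25.0%, Ccdc163 in 62.8% and 30.8%, and Togaram2 in 60.5% and 29.8%. Several of these lay so near the limit that the random draw decided them: in a second draw the difference was 14.2 points for Togaram2, 27.1 for Sema5b, 27.6 for Slc38a11, 29.1 for Ccdc163 and 29.9 for Lhfpl2. Masp1 and Tmem26 passed in that draw but were under the limit in other runs. For Masp1 the difference was 26.9 points at a detection limit of 5 reads and 27.8 without nuclei 97 to 192. For Tmem26 it was 23.3 in nuclei of at least 1000000 reads and 27.0 without nuclei 193 to 288. The other 4 of the 15 had clone or predicted names.

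Negative nuclei carried several of these genes at once. At least 1 of Plekho2, Palmd, Ntng2, Nxph4 and Slc38a11 was found in all 43 negative nuclei, with a median of 4 of the 5, and all 5 in 5 nuclei. In double-positive nuclei the median was 1, none was found in 22 of 104 (21.2%) and all 5 in 3. These genes were picked for their difference over the same nuclei, so their joint presence is no further support for it.

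**Figure D4:**
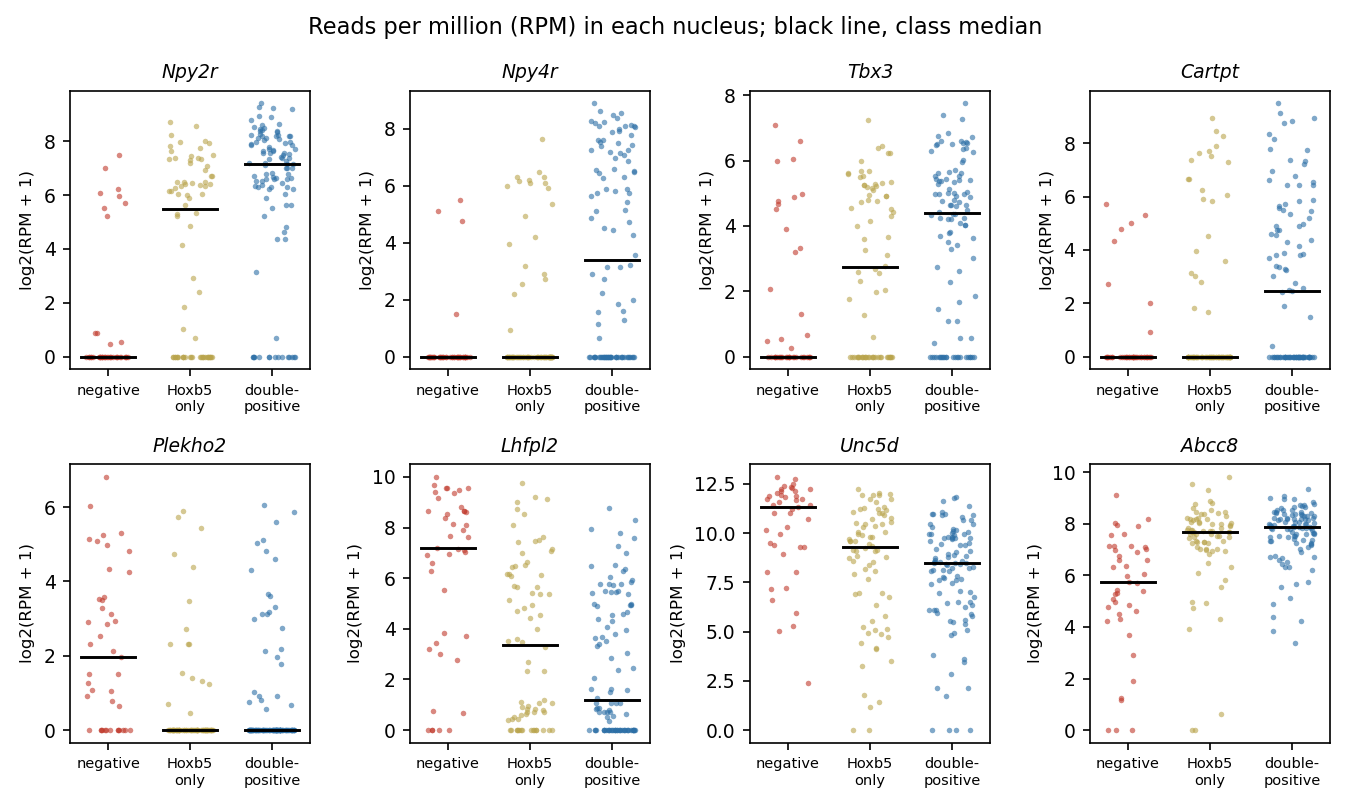
Level of 8 genes in each negative, Hoxb5-only and double-positive nucleus, as log2(RPM + 1) without thinning; points are nuclei and black lines class medians. Npy2r has medians of 0 and 142 RPM in negative and double-positive nuclei, Lhfpl2 of 145 and 1.26 RPM, Unc5d of 2524 and 353 RPM and Abcc8 of 52.8 and 235 RPM, and points of the classes overlap in every panel.

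The 76 nuclei with Hoxb5 but no Hoxa5 read took no part in choosing the genes and lay mostly between the classes. For 87 of the 88 lower genes and 13 of the 15 higher genes their share was between those of negative and double-positive nuclei, and it was nearer to the double-positive share for 50 and 13. These genes were picked as far apart between negative and double-positive nuclei, so a share in between was likely for any other nuclei. How often it lay in between over all genes described was not counted, and the count is no support for a gradient. Npy2r was found in 61.8% of the 76 nuclei, Sstr5 in 53.9%, Chrna6 in 39.5%, Npy4r in 26.3%, Tbx3 in 59.2% and Cartpt in 28.9%. Tmem100, at 10.5%, lay close to negative nuclei, and Ush1c, at 86.8%, close to double-positive nuclei. Plekho2 was found in 15.8%, below both the negative and the double-positive share, and Palmd in 38.2%. All 4 receptors Npy2r, Npy4r, Sstr5 and Chrna6 were absent in 11 of the 76 nuclei (14.5%) and present in 4 (5.26%). In the 16 nuclei with Hoxa5 and under 5 Hoxb5 reads, Npy2r was found in 37.5%, Plekho2 in 12.5% and Ntng2 in 75.0%, on a small number of nuclei.

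**Figure D5:**
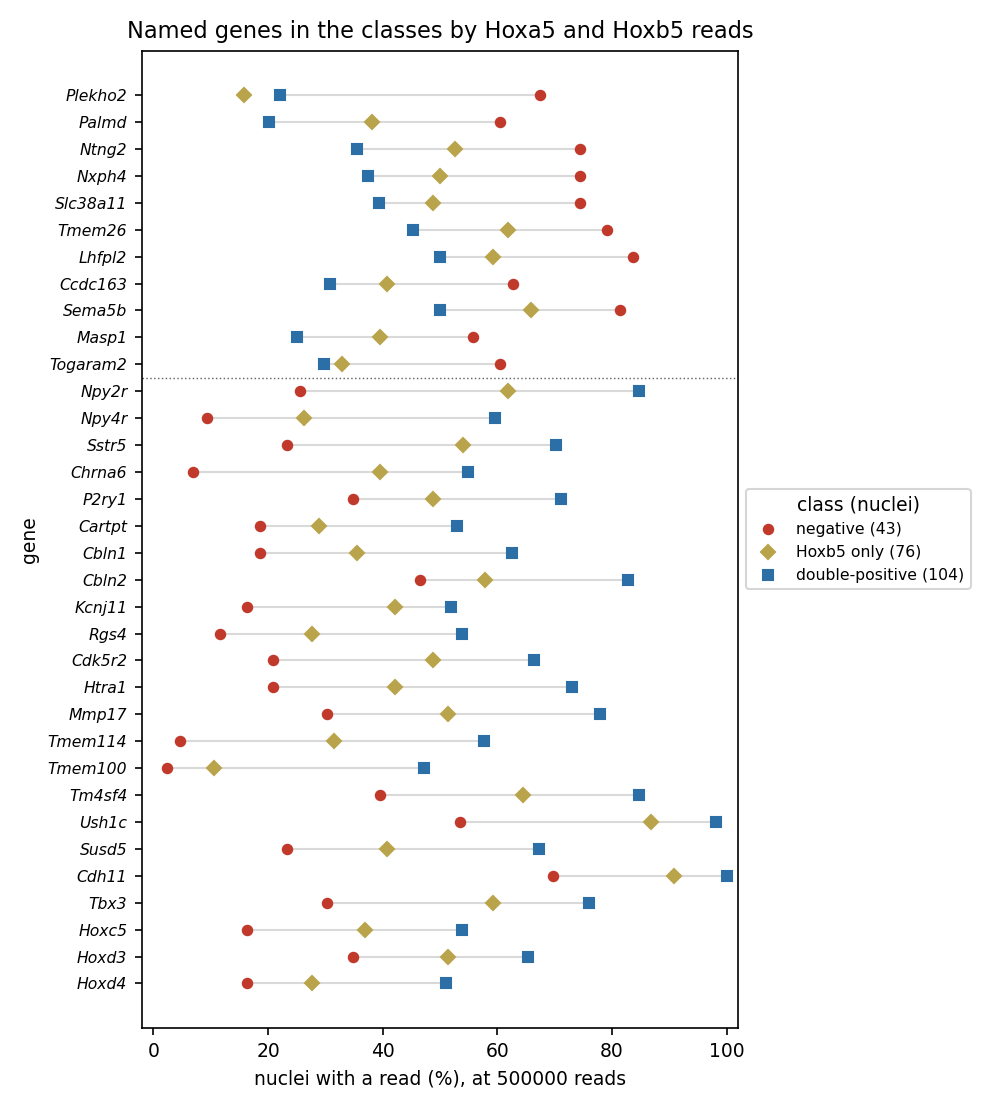
Share of nuclei with at least 1 read of each named gene past the limit, in negative, Hoxb5-only and double-positive nuclei, after thinning to 500000 reads. The 11 genes above the dotted line are higher in negative nuclei and the 23 below it are lower. Hoxb5-only nuclei lie between the classes for each gene shown except Plekho2, for which they are lowest at 15.8%.

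Among genes found in nearly all nuclei, which a share cannot separate, levels differed in both directions. For 4106 genes found in at least 85% of both classes, the median RPM over nuclei was compared, with a limit of 2-fold that was chosen after the values were seen. It was higher in negative nuclei for 47 genes (1.14%) and lower for 147 (3.58%), and the median ratio of negative to double-positive nuclei over all 4106 was 0.950. The 147 include Tbx20, which the rule required. Without thinning, 84 and 214 genes passed, as more genes reached 85% of nuclei. In each direction the 10 genes with the largest ratio, clone names aside, and the listed genes among these are described.

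Genes with a higher level in negative nuclei were led by Unc5d. This netrin receptor family gene had 4.28, 2524 and 7458 RPM as the lowest, median and highest value in negative nuclei, against 0, 353 and 3604 RPM in double-positive nuclei. Of 43 negative nuclei 34 exceeded the double-positive median, and 4 of 104 double-positive nuclei exceeded the negative median. The ratio of medians was 7.16 over all nuclei and 2.60 among nuclei at or below the median mitochondrial share. Robo2, a Slit receptor, had medians of 348 and 95.3 RPM, and 33 negative nuclei lay above the double-positive median while 4 double-positive nuclei lay above the negative one. Lrrc4c, a synaptic adhesion protein that binds netrin-G1, had medians of 2309 and 593 RPM, and Pcdh7, a protocadherin, 1675 and 447 RPM, a ratio of 3.75 that was 2.19 without nuclei 193 to 288 and 1.82 among nuclei at or below the median mitochondrial share. The contactin gene Cntn4 had 1298 and 297 RPM, a ratio of 4.37 that was 1.90 without nuclei 193 to 288. It was 6.63 without nuclei 1 to 96 and 6.87 without nuclei 97 to 192. Among nuclei at or below the median mitochondrial share it was 1.53, and above it 10.4. Pcdh9 had 491 and 126 RPM, a ratio of 3.89 that was 1.10 above the median mitochondrial share. Runx1t1, a transcriptional co-repressor, had 142 and 39.1 RPM, a ratio of 3.63 that was 1.94 at or below it. Fstl5 had 311 and 82.6 RPM. Among channels, Trpm3, a cation channel, had 247 and 62.5 RPM. Of 12 cadherins and protocadherins found this widely, 5 were higher and 4 lower, and of 23 axon guidance genes 3 were higher and 3 lower. Over all 4106 genes found this widely, 1.14% were higher and 3.58% lower.

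Lower levels in negative nuclei included the partner of the potassium channel pore named above. Abcc8, which encodes the sulfonylurea receptor 1 subunit that joins Kcnj11 in ATP-sensitive potassium channels, had 0, 52.8 and 557.6 RPM as the lowest, median and highest value in negative nuclei, against 9.39, 235 and 653.9 RPM in double-positive nuclei. In 5 of 43 negative nuclei it exceeded the double-positive median. The genes lie side by side on chromosome 7, Kcnj11 at 46093953 to 46100764 and Abcc8 at 46104523 to 46180033, on the same strand. Ghr, the growth hormone receptor gene, had medians of 104 and 639 RPM, and 1 negative nucleus exceeded the double-positive median. Serpini1, the neuroserpin gene, had 72.5 and 363 RPM, and its ratio of negative to double-positive medians was 0.520 above the median mitochondrial share, within 2-fold. Adamts2, a procollagen protease, had 83.0 and 382 RPM. The growth factor gene Nrg1 had 710 and 3127 RPM, a ratio of 0.227 that was 0.126 without nuclei 97 to 192. The glypican gene Gpc6 had 205 and 1129 RPM, a ratio of 0.181 that was 0.322 without nuclei 193 to 288, 0.280 without nuclei 97 to 192 and 0.278 without the 2 nuclei with somatic markers. Nrp2, a semaphorin receptor, had 75.5 and 306 RPM, Arhgap24 97.3 and 403 RPM, and Fbxl7 74.2 and 314 RPM. Hpcal1, a neuronal calcium sensor, had 127 and 532 RPM, a ratio of 0.239 that was 0.395 without nuclei 193 to 288.

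Of 28 GABA, glycine and glutamate receptor genes found in nearly all nuclei, 0 were higher and 5 lower, among them Gabrg3, Gabbr1 and Grin2a. Beside this count and that of the cholinergic genes below stand 1.14% higher and 3.58% lower over all 4106 genes found this widely. Gabrg3, a gamma subunit of GABA-A receptors, had medians of 808 RPM in negative and 2625 RPM in double-positive nuclei. The Gabrg3 ratio of 0.308 was 0.475 without nuclei 193 to 288, 0.180 without nuclei 1 to 96 and 0.179 without nuclei 289 to 384. Of 5 cholinergic genes 0 were higher and 2 lower, Slc18a3 (93.1 and 196 RPM) and Ache (127 and 275 RPM), and both were higher in negative nuclei above the median mitochondrial share. The Slc18a3 ratio of 0.474 was 0.568 without nuclei 97 to 192, and the Ache ratio of 0.462 was 0.524 without nuclei 1 to 96, both within 2-fold. The Gabbr1 ratio of 0.417 was 0.773 above the median mitochondrial share. Ret, a receptor for the GDNF family of trophic factors, had 98.9 and 212 RPM, a ratio of 0.466 that was 0.502 without nuclei 97 to 192 and 0.572 at or below the median mitochondrial share.

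Mitochondrial share moved with the classes, so values were also taken on each side of its median over both classes, 0.106%, an alternative chosen after seeing the data. At or below it there were 31 negative and 43 double-positive nuclei, and all 15 higher and 88 lower genes kept their direction, with median differences of 32.0 and -32.3 points. Above it, with 12 negative and 61 double-positive nuclei, the 15 and 81 of the 88 kept it. Both sides hold nuclei over which these genes were chosen, so a kept direction is no separate support. Npy2r was found in 25.8% of negative and 74.4% of double-positive nuclei on the low side, and in 25.0% and 91.8% on the high side. Plekho2 was found in 64.5% and 20.9% on the low side and in 75.0% and 23.0% on the high side. Cartpt differed on the low side only by this limit, with 3.23% and 44.2% on the low side and 58.3% and 59.0% on the high side. Kcnj11 was found in 16.1% and 27.9% on the low side and in 16.7% and 68.9% on the high side. Of the 34 named genes past the limit, 7 differed by under 30 points on the low side and 9 on the high side, among them Tbx3, Mmp17, Tm4sf4 and Palmd on the high side and P2ry1, Cbln2 and Tmem100 on the low side. Of the genes called by level, the 47 higher and the 147 lower kept their direction on the low side, with 21 and 66 still past 2-fold. On the high side 44 of 47 and 106 of 147 kept it, with 29 and 48 past 2-fold, and the median ratio of the 147 was 0.697, against 0.430 over all nuclei. Ratios of named genes that moved by over 1.5 times and stayed past 2-fold were, on the low side, 0.280 for Ghr, 0.363 for Nrg1, 0.382 for Fbxl7 and 0.411 for Arhgap24. On the high side they were 0.0666 for Ghr, 0.0684 for Nrg1, 0.144 for Arhgap24, 0.130 for Abcc8, 0.128 for Adamts2, 0.168 for Gabrg3, 0.331 for Gpc6, 5.99 for Fstl5, 5.68 for Pcdh7 and 5.70 for Runx1t1. The part of mitochondrial reads in these differences was not tested.

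Among markers of other cells, those of oligodendrocytes and catecholaminergic neurons had the highest medians in both classes. All 6 oligodendrocyte markers were found in a smaller share of negative nuclei, with summed levels of 0 to 133 RPM (median 35.3) in negative and 0 to 2232 RPM (median 64.5) in double-positive nuclei. All 6 catecholaminergic markers were also found in a smaller share, with 0 to 1049 RPM (median 255) in negative and 6.94 to 1499 RPM (median 448) in double-positive nuclei. Among them Th, which encodes tyrosine hydroxylase and was chosen for mention after its values were seen, passed the limit at 25.6% and 61.5%. For astrocytes the summed level was 0 to 618 RPM (median 3.68) in negative and 0 to 1523 RPM (median 5.48) in double-positive nuclei, with 2 of 5 markers found in a larger and 3 in a smaller share. For microglia it was 0 to 488 RPM (median 0.694) in negative and 0 to 133 RPM (median 0.571) in double-positive nuclei. The summed markers of glutamatergic, inhibitory and serotonergic neurons, oligodendrocyte precursors, vascular cells and ependymal cells had medians of at most 2.78 RPM in negative and 4.51 RPM in double-positive nuclei. General neuronal markers had medians of 4194 and 4085 RPM and the 6 cholinergic markers, Chat and Slc5a7 of the rule among them, 1095 and 1628 RPM. The part of these reads in the differences above was not tested. On the genome, annotated gene lengths had medians of 56.4 kb for 13 of the 15 higher genes, 10.5 kb for 87 of the 88 lower genes and 25.8 kb over all genes described. Among genes found in nearly all nuclei the medians were 415 kb for those with a higher level, 47.3 kb for those with a lower level and 64.8 kb over all.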

How the data were processed

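Smart-seq2 libraries of single nuclei were deposited as 1 table of whole-number read counts, which covers 29779 genes and 383 nuclei and is not normalised. The submitters' processing notes name the build GRCm38 and, without roles, the programs STAR, Picard, bcl2fastq, Seurat 3 and edgeR. The annotation, counting mode and use of strand are not given in the sources used here. The labels' protocol also speaks of sections near the suprachiasmatic nucleus, which was not resolved.

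The members, gene lists and rules were chosen with earlier results of these data known. Each kept nucleus was thinned by a random draw without replacement to 500000 reads (seed 1), and a gene counted as found with at least 1 read. Levels in RPM use all reads of the nucleus. Genes with a read in at least 10 nuclei of both classes together were described. The limit was a share difference of 30 percentage points with a mean RPM ratio of 1.5. Genes named were the 15 with the largest difference past the limit in each direction (11 among the higher), leaving out clone, predicted, pseudogene and mitochondrial names, every gene past the limit from 17 lists (669 of 680 listed genes were in the table), and a fixed set of Hox and motor neuron genes. The level rule, the mitochondrial split and other genes named near the limit were chosen after seeing the data.

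All nuclei form 1 sample, so no test was run. Depth in the kept classes ran from 532391 to 4699420 reads. Reads were amplified without molecular identifiers, so intervals cover counting error only. Wells held single sorted nuclei, and doublets were not searched for. Gene positions came from GENCODE M21. Some genes and sequences are not reported here. Alternatives changed the depth, draw, detection, limits, filter, class definitions, nuclei with somatic markers, blocks of nucleus numbers and mitochondrial share. The comparison was also run on simulated counts with planted changes well past the limit and genes drawn independently. That run says nothing of calls near the limit. Python 3.11.15, numpy 2.4.6, pandas 2.3.3, scipy 1.17.1 and matplotlib 3.10.9 were used.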

Additional observations from a re-analysis of the deposited data

How the results depend on the processing

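Genes higher and lower in negative nuclei numbered 15 and 88. They numbered 122 and 510 with a limit of 20 points, 2 and 22 with 40 points, 23 and 115 with 5 reads for detection, and 23 and 102 with nuclei of at least 1000000 reads. Without nuclei 1 to 96 they numbered 32 and 138, without 97 to 192 they numbered 23 and 119, without 193 to 288 they numbered 23 and 171, and without 289 to 384 they numbered 35 and 110. At or below the median mitochondrial share, with 31 negative and 43 double-positive nuclei, they numbered 50 and 121, and above it, with 12 and 61 nuclei, 230 and 309. These subsets hold fewer nuclei, and the cause of the larger counts was not tested. The other alternatives (200000 reads, no thinning, a second draw, no ratio, no filter, both other class definitions, no nuclei with 3 or more somatic markers) gave 14 to 18 higher and 79 to 109 lower genes. The 15 and the 88 kept their direction in every alternative, except that 81 of the 88 did above the median mitochondrial share. Every alternative used nuclei over which these genes were chosen, so a kept direction is no separate support. Of 34 named genes past the limit, 18 differed by at least 30 points in every alternative other than the mitochondrial split. Widely found genes with a higher level numbered 84 without thinning and 132 above the median mitochondrial share, against 47. On that side 44 of these 47 and 106 of the 147 genes with a lower level kept their direction, and 29 and 48 stayed past 2-fold. Among the genes of the lists or with the largest ratios, the ratio of medians, negative over double-positive, was reversed for Pcdh11x (1.09), Slc18a3 (1.16), Chgb (1.58), Ache (1.51), Pcsk1n (1.13) and Scg2 (1.16), all lower over all nuclei, and the cause was not tested. No paired analysis was possible because all nuclei form 1 sample with no test. The spread between animals is unknown, and a gene with few reads can be missed at 500000 reads.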

Other observations

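Values are given here for nuclei that the rule left out. Of 21 nuclei with a Cck read that met the other limits, 12 (57.1%) had no Hoxa5 or Hoxb5 read and 4 (19.0%) met the double-positive limits. Npy2r, the Y2 receptor gene, was found in 33.3% of them (95% interval 14.6 to 57.0), Palmd in 61.9% (38.4 to 81.9), Nxph4 in 66.7% (43.0 to 85.4), Lhfpl2 in 76.2% (52.8 to 91.8), Plekho2 in 28.6% (11.3 to 52.2) and Hoxd3 in 66.7% (43.0 to 85.4). Of 29 nuclei with Chat or Slc5a7 and without Tbx20, 17 (58.6%) had no Hoxa5 or Hoxb5 read and 5 (17.2%) met the double-positive limits. Npy2r and Npy4r were each found in 6.90% of them (0.846 to 22.8), Sstr5 and Chrna6 in 3.45% each, Ntng2 in 65.5% (45.7 to 82.1), Nxph4 in 62.1% (42.3 to 79.3) and Hoxc4 in 72.4% (52.8 to 87.3). These nuclei were compared with neither class.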
